A study of Mus musculus with 6 samples.

Results

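The 10 early response genes described here are 3 genes of the EGR family (Egr1, Egr2 and Egr3), 3 of the NR4A family (Nr4a1, Nr4a2 and Nr4a3), 3 immediate early response genes named IER (Ier2, Ier3 and Ier5) and Phlda1. They were chosen by gene symbol, and all 10 were found among the 24346 symbols with a deposited value. RNA-seq had been made from primary articular chondrocytes, which build and maintain joint cartilage, from ICR mice, an outbred strain, at postnatal day 4. There were 3 control libraries and 3 libraries of cells treated with semaphorin 4D (Sema4D), a ligand of plexin-B receptors. No genotype beyond the ICR strain was given for either group, and the sources used here give neither dose nor time of treatment, nor the control medium, nor whether replicates were separate cultures or animals. The p-values below therefore rest on library-to-library spread alone, which may be technical.

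Immediate early genes are transcribed soon after a stimulus, without new protein synthesis, and most of their transcripts are short-lived. EGR proteins are zinc-finger transcription factors that bind GC-rich DNA, and their genes are classical targets of ERK signalling through serum response factor, which binds CArG boxes. NR4A proteins are orphan nuclear receptors that can bind DNA as monomers, and their genes answer to cyclic AMP and calcium signals as well as to growth factors and inflammatory cytokines. Ier3, also called IEX-1, is a known NF-kappaB target linked to cell survival. Ier2 and Ier5 encode related nuclear proteins, and Phlda1 encodes a pleckstrin homology-like protein linked to cell death and growth control.

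The comparison asked how the transcript level of each of these genes differed between Sema4D and control libraries. Ier3, Phlda1, Ier5 and Nr4a2 rose with Sema4D, Egr1 fell, and Ier2 and Nr4a1 did not pass the threshold. The sizes were unequal: Ier3 rose 13.2-fold by the ratio of mean FPKM, Phlda1 3.4-fold, Ier5 1.7-fold and Nr4a2 1.35-fold, while Egr1 fell to 0.728 of its control mean. In bulk RNA fewer cells of a type and less RNA per cell cannot be told apart. Egr2, Egr3 and Nr4a3 were under 1 FPKM on average and did not enter the main test. FPKM are fragments scaled to transcript length and to the number of mapped fragments, so levels of different genes can be set side by side. The test was limma on log2(FPKM + 1) for the 11603 genes that averaged 1 FPKM or more, and a gene passed when its p, adjusted over all of them by Benjamini-Hochberg, was below 0.05.

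Of the 7 members that passed the filter, 4 rose and 1 fell. Over all tested genes 24.5% rose and 22.2% fell, 46.7% in all, so a call by itself sets no member apart. The groups did not overlap for 5 of the 7, 4 with higher and 1 with lower values, against 56.6% of all tested genes (29.6% higher and 27% lower). After quantile normalization 38.8% of all calls were rises, and after division by the FPKM total 34.5%, against 52.4% without rescaling. Each of the 7 members stayed on its side of the threshold under both scalings. The median log2 fold change of the 7 was 0.29, against 0.01 over all tested genes. In order of log2 fold change, Ier3 was at rank 42 from the top of the 11603, Phlda1 at rank 191 and Ier5 at rank 665. Egr1 stood at the 7.02nd percentile.

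**Figure D1:**
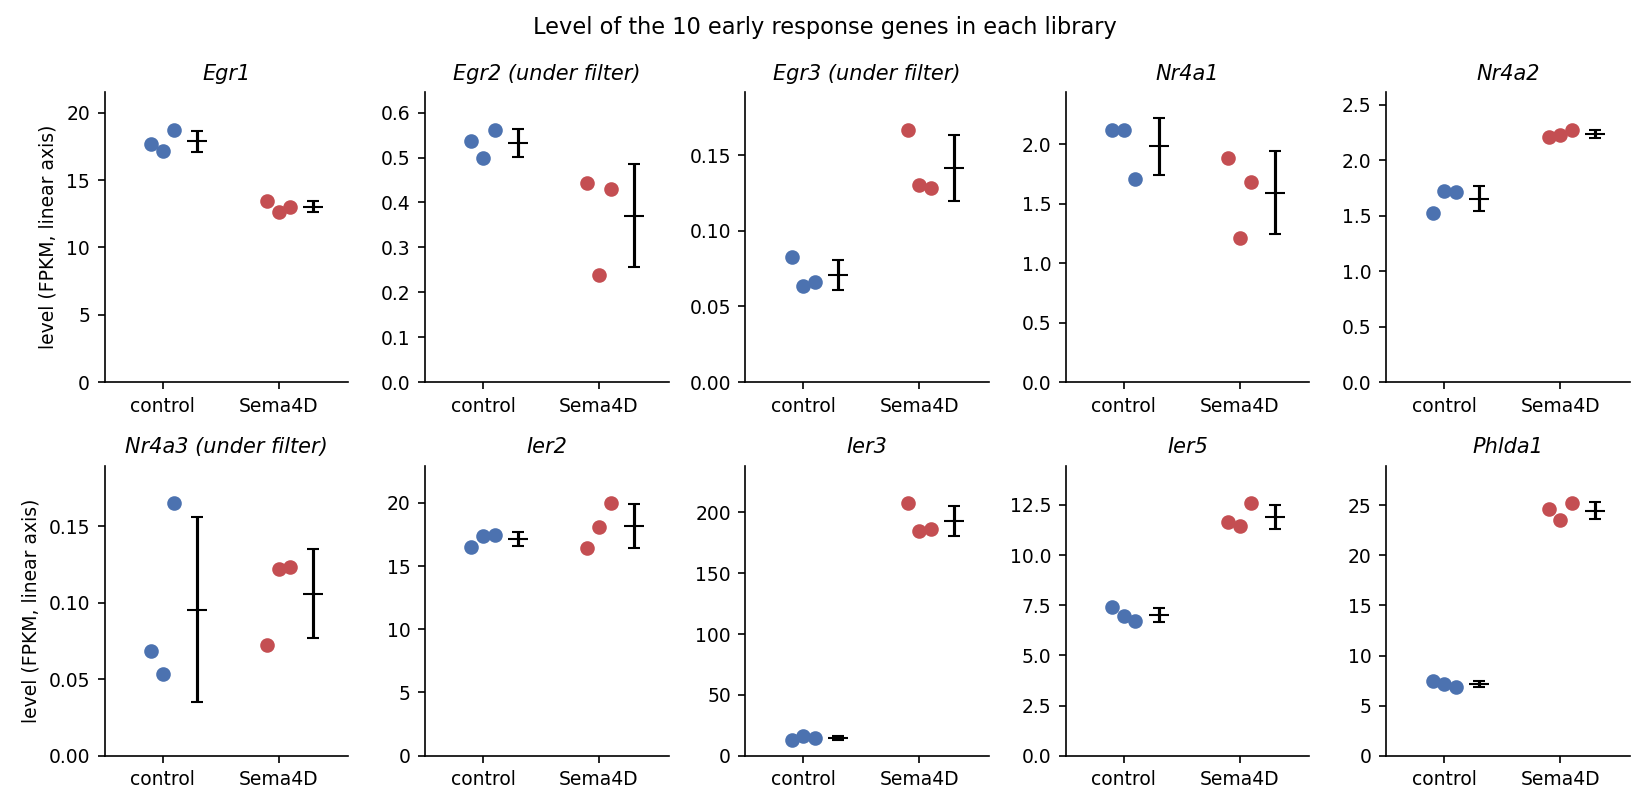
Level of each of the 10 genes in FPKM (linear axes from 0, a different range in each panel) in the 3 control (blue) and 3 Sema4D (red) libraries, as points in replicate order, with the mean and SD as a black bar. Ier3, Phlda1, Ier5 and Nr4a2 are higher in every Sema4D library than in every control library, Egr1 is lower, and the groups of Ier2 and Nr4a1 overlap.

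Sequences before the start of transcription are shown for 5 members whose responses ranged from the largest rise to no call. Egr1, the member that fell, is not among them. The RefSeq promoter table (build GRCm38.p6, the assembly of mm10) was matched by symbol, with Egr1 left out of the match beforehand. The match gave a sequence for 6 of the 10 members, and the absence of Egr1 does not mean that the table lacks its promoter. Each window below gives the 250 bases before a RefSeq start, 5′ to 3′ on the gene's own strand. Capitals mark a match, on either strand, to the CArG box, the EGR motif GCGNGGGCG, the NF-kappaB motif or TGACG, the core of the cyclic AMP response element. The windows are chr17:35821463-35821712 on the plus strand for Ier3, chr1:155099637-155099886 on the minus strand for Ier5 and chr2:57124004-57124253 on the minus strand for Nr4a2. Those of the other two are chr15:101266596-101266845 on the plus strand for Nr4a1 and chr10:67537619-67537868 on the plus strand for Egr2, which has several annotated starts. The windows of Nr4a1 and Egr2 lie inside the annotated gene, before an internal start, and those of Ier3, Ier5 and Nr4a2 lie directly outside it. GENCODE M21 places an exon over 29 bases of the Ier3 window and over 0 bases of the other windows shown.
Ier3: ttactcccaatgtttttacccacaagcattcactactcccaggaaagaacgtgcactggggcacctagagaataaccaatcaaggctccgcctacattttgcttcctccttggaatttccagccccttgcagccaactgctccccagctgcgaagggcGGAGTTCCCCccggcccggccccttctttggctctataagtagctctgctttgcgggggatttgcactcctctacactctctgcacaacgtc
Ier5: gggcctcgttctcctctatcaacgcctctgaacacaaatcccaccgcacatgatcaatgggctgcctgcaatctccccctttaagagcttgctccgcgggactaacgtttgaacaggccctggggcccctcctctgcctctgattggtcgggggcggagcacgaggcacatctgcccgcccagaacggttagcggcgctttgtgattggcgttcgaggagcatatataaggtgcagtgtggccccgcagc
Nr4a2: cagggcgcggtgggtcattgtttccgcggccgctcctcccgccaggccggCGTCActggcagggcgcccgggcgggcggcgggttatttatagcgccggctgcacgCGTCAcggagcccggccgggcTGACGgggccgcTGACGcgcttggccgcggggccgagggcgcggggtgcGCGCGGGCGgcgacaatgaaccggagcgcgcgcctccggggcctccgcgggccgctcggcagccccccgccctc
Nr4a1: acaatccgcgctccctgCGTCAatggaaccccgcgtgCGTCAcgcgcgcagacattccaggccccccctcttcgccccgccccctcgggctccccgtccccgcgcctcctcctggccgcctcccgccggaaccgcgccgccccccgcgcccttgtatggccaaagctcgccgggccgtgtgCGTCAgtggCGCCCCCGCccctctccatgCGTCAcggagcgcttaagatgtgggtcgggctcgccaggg
Egr2: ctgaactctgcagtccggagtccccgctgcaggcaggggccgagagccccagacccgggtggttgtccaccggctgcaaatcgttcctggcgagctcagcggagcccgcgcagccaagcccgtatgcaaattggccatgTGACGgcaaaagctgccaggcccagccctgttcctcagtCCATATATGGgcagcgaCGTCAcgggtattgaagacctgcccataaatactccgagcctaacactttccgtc

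The Ier3 window had a match to the NF-kappaB motif, on the minus strand 92 to 83 bases before the start, and to no other motif searched. That motif was found in 3.9% of 32841 RefSeq promoter windows of the same length. The Egr2 window had a CArG box 72 to 63 bases before the start and 2 TGACG cores. It is 1 of 5 overlapping or nearby Egr2 windows in the table, and of these 4 had a CArG box, 3 had TGACG cores and 1 had no match. The 3 windows with TGACG cores overlap and hold the same CArG box and the same cores. CArG boxes were found in 1.47% of windows and the core in 17.8%. The Nr4a1 and Nr4a2 windows each had 4 TGACG cores and 1 EGR motif, which was found in 4.7% of windows. The Nr4a3 window, not printed, also had TGACG cores but no EGR motif. In Nr4a1 the EGR motif lay on the minus strand 60 to 52 bases before the start, and in Nr4a2 on the plus strand 74 to 66 bases before it. The Ier5 window had no match to any motif searched. The full cyclic AMP response element TGACGTCA (1.55% of windows), which contains the core, the NR4A monomer site AAAGGTCA (1.34%) and the AP-1 motif TGANTCA (6.75%) were in none of the 5 windows. TATAAA (12.4%) was in the Nr4a2 window only, on the minus strand. A match describes the letters in a window, not a bound site.

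Among the IER genes, Ier3 (chromosome 17, 35821713 to 35822911, protein-coding) stood at 13.2, 15.8 and 14.9 FPKM in control replicates 1, 2 and 3 and at 207, 185 and 186 FPKM in Sema4D replicates 1, 2 and 3. The lowest Sema4D library was far above the highest control library. On the log2(FPKM + 1) scale the change was 3.64 (SE 0.069, limma adjusted p = 2.89e-09). The printed Ier3 window held a match to the NF-kappaB motif, as did 3.9% of promoter windows, and a link to the rise was not tested.

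Ier5 (chromosome 1, 155096367 to 155099636), whose product has been linked to heat shock factor activity, stood at 7.39, 6.95 and 6.69 FPKM in control against 11.7, 11.4 and 12.6 FPKM with Sema4D. The groups did not overlap, and the log2 change was 0.69 (SE 0.054, limma adjusted p = 1.52e-05). Ier2 (chromosome 8, 84661331 to 84662852) stood at 16.5, 17.4 and 17.5 FPKM in control and 16.4, 18.1 and 20.0 FPKM in Sema4D libraries. Its groups overlapped: Sema4D replicate 1 was the lowest of all 6 libraries and Sema4D replicate 3 the highest. The log2 difference was 0.08 (95% confidence interval -0.07 to 0.22, limma adjusted p = 0.378), and it was -0.00316 after division by the FPKM total. It was 0.14 without Sema4D replicate 1 (limma adjusted p = 0.0829), 0.0084 without Sema4D replicate 3 and 0.05 without control replicate 1.

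Phlda1 (chromosome 10, 111506286 to 111508649), known from T cells as TDAG51, stood at 7.47, 7.19 and 6.9 FPKM in control against 24.6, 23.6 and 25.2 FPKM with Sema4D. All Sema4D libraries were above all control libraries, and the spread within each group was small (SD 0.284 and 0.831 FPKM). The log2 change was 1.64 (SE 0.044, limma adjusted p = 2.57e-08). In GENCODE M21 the predicted gene Gm28592, which has no row in the table, overlaps Phlda1. The sources used here do not give the strand setting of the counting, so reads of overlapping genes cannot be told apart.

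Egr1 (chromosome 18, 34861207 to 34864956), the most studied of the EGR factors and known in cartilage as a regulator of the type II collagen gene, stood at 17.7, 17.2 and 18.7 FPKM in the control libraries. It stood at 13.42, 12.61 and 13.01 FPKM with Sema4D. Every Sema4D library was below every control library. The log2 change was -0.43 (SE 0.045, limma adjusted p = 8.91e-05). The fall was the reverse of the direction of Ier3, Phlda1, Ier5 and Nr4a2 in the same libraries.

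Egr2 (chromosome 10, 67534469 to 67542188), also called Krox20, was read at 0.537, 0.498 and 0.562 FPKM in control and at 0.443, 0.238 and 0.429 FPKM in Sema4D libraries. All 3 Sema4D values were below the control values, and Sema4D replicate 2 was the lowest. With no filter on low values, where 33.2% of 17461 genes were called (17.2% higher and 16% lower), its log2 difference was -0.16 (limma adjusted p = 0.106), and -0.09 without Sema4D replicate 2. Egr3 (chromosome 14, 70077317 to 70082613) was read at 0.0824, 0.0637 and 0.0663 FPKM in control and at 0.167, 0.13 and 0.128 FPKM in Sema4D libraries. These values correspond to roughly 4 fragments in each control library and roughly 11, 8 and 7 fragments in the Sema4D libraries, taking the longest coding transcript. On so few fragments its log2 difference of 0.09 had a limma adjusted p of 0.0384 with no filter, and that call was lost in 5 of 12 alternatives, among them leaving out control replicate 2 (0.0677) or 3 (0.0676). Egr4, the remaining gene of the family, was listed at 0 in all 6 libraries.

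The NR4A genes were expressed at low levels. Nr4a2 (chromosome 2, 57106830 to 57124003), also called Nurr1, stood at 1.52, 1.73 and 1.71 FPKM in control against 2.21, 2.23 and 2.27 FPKM with Sema4D. The groups did not overlap, and the Sema4D libraries lay close together (SD 0.0339 FPKM). The log2 change was 0.29 (SE 0.068, limma adjusted p = 0.00907). Nr4a1 (chromosome 15, 101253902 to 101274795), also called Nur77, stood at 2.12, 2.12 and 1.71 FPKM in control and at 1.89, 1.21 and 1.68 FPKM in Sema4D libraries. Sema4D replicate 1 was above control replicate 3, so the groups overlapped. The log2 difference was -0.21 (95% confidence interval -0.47 to 0.06, limma adjusted p = 0.172), so the interval included both no difference and a fall as large as that of Egr1. Without Sema4D replicate 2 the difference was -0.10. Nr4a1 varied more between libraries of a group than most genes: its residual SD was at percentile 94.0 of tested genes.

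Nr4a3 (chromosome 4, 48045078 to 48086447), also called NOR-1, was read at 0.0682, 0.0533 and 0.165 FPKM in control against 0.0724, 0.122 and 0.123 FPKM with Sema4D. This was roughly 5 to 15 fragments per library. The highest and the lowest value were both control libraries. No difference was detectable at this depth (log2 difference 0.01 with no filter on low values, limma adjusted p = 0.836).

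**Figure D2:**
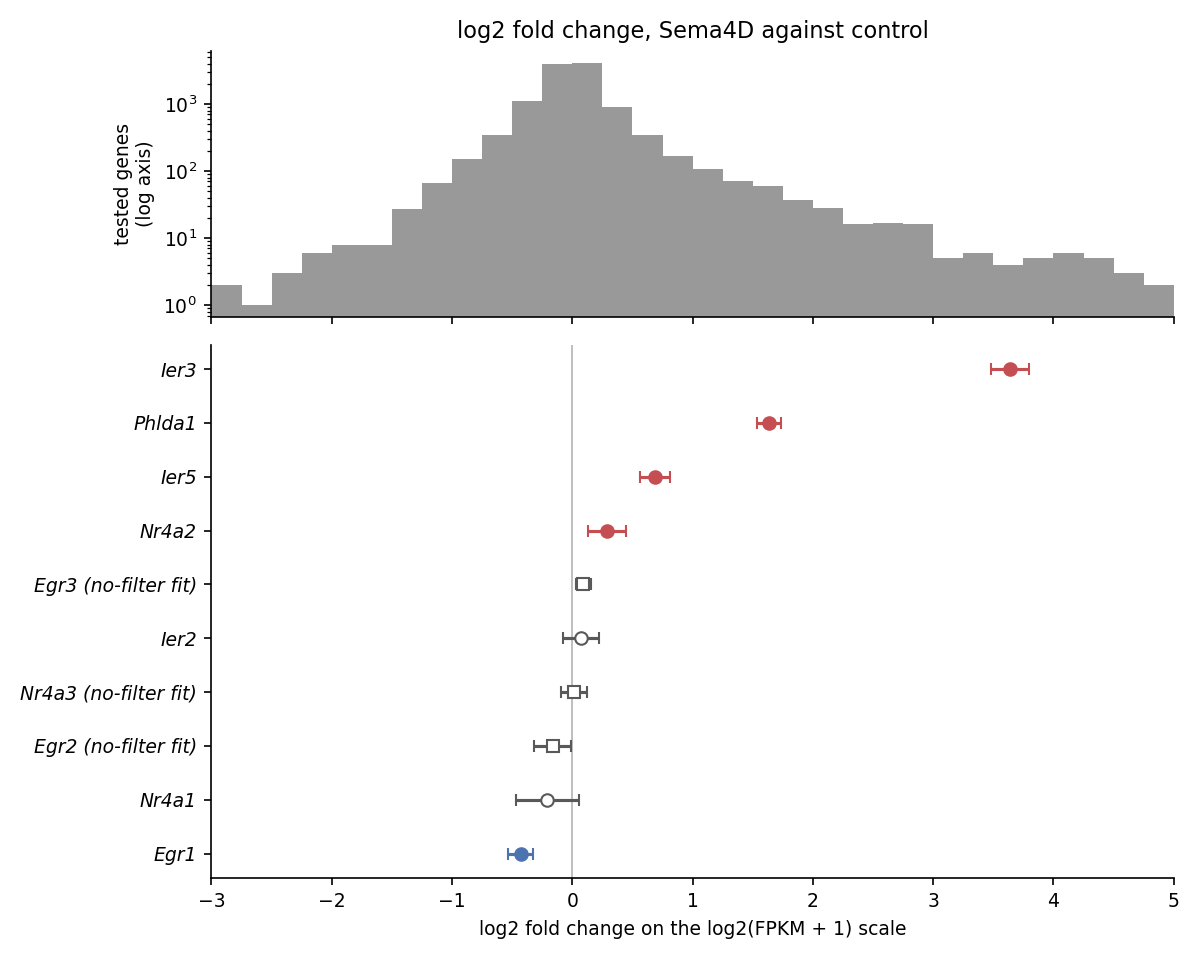
Upper panel, number of tested genes (log axis) by log2 fold change, Sema4D against control, in bins of 0.25, with 19 genes above and 3 below the range drawn; lower panel, the log2 fold change of each member with its 95% confidence interval. Filled red and blue points passed the threshold in the main test, open circles did not, and open squares are the 3 members under the filter, taken from the fit with no filter; Ier3 stands at 3.64 and Egr1 at -0.43.

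The make-up of each family is described without a test. In the IER family the summed level was 37.1 to 40.1 FPKM in control and 215 to 236 FPKM in Sema4D libraries. Ier3 made up 37.6% ± 1.97 of that sum in control and 86.5% ± 1.49 with Sema4D (mean ± SD over 3 libraries each). The share of Ier2 went from 44.2% ± 0.74 to 8.18% ± 1.09, although the level of Ier2 itself did not pass the test. The sum of all 10 genes was 66.6 to 69.0 FPKM in control and 255 to 278 FPKM in Sema4D libraries, and Ier3 took 21.4% ± 1.58 of it in control and 72.8% ± 1.68 in Sema4D libraries.

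The NR4A sum overlapped between the groups, with 3.58 to 3.9 FPKM in control and 3.56 to 4.17 FPKM in Sema4D libraries. Within it Nr4a1 made up 57.1%, 54.4% and 47.6% in the control libraries and 45.3%, 34.0% and 41.2% in the Sema4D libraries. Nr4a2 made up 41.0%, 44.3% and 47.8% in control and 53.0%, 62.6% and 55.7% in Sema4D libraries. Nr4a1 was above Nr4a2 in 2 of the 3 control libraries and below it in all 3 Sema4D libraries. The EGR sum was nearly all Egr1 in both groups (96.7% ± 0.106 in control and 96.2% ± 0.813 in Sema4D libraries), and its level was 17.7 to 19.4 FPKM in control and 12.97 to 14.03 FPKM in Sema4D libraries.

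**Figure D3:**
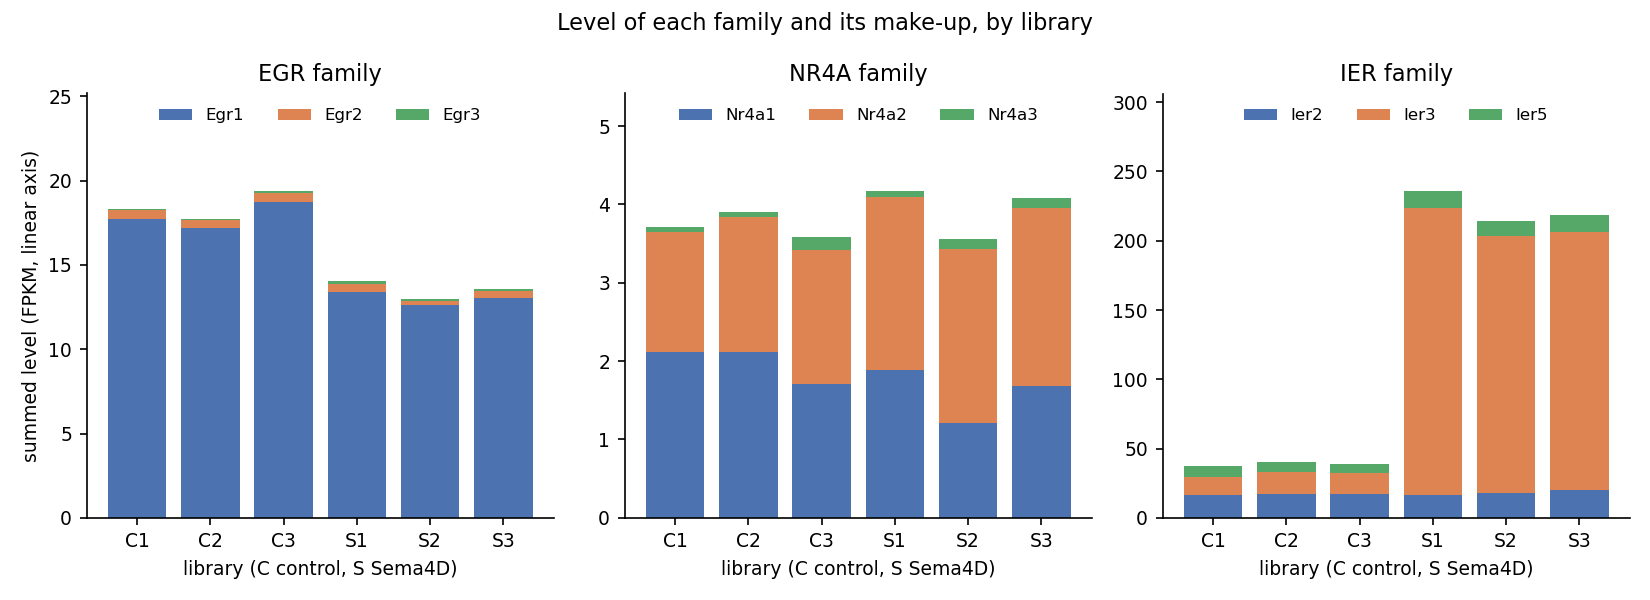
Summed level in FPKM (linear axis from 0, a different range in each panel) of the EGR, NR4A and IER genes in each control (C) and Sema4D (S) library, split by member. The IER bars grow through Ier3, the EGR bars are nearly all Egr1, and the NR4A bars keep their height while Nr4a2 takes a larger share with Sema4D.

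Ratios of 2 members within a library do not depend on scaling between libraries. Of the 21 pairs of tested members, the ratio did not overlap between the groups for 19. Over all pairs of tested genes above 0 in every library the same held for 60.2%. The 21 pairs share genes and are not independent. An exact permutation test of 3 libraries against 3 cannot give a two-sided p below 0.1, so no single ratio was tested. Ier2 to Ier3 stood at 1.26, 1.1 and 1.17 in the control libraries and at 0.0793, 0.0978 and 0.107 in the Sema4D libraries. Egr1 to Ier2, 2 genes with near-equal levels in control, stood at 1.07, 0.986 and 1.07 in control and at 0.816, 0.697 and 0.652 in Sema4D libraries. Ier5 to Phlda1 stood at 0.989, 0.966 and 0.969 in control and at 0.474, 0.486 and 0.499 in Sema4D libraries. The ratios of Egr1 and of Ier2 to Nr4a1 were those that overlapped.

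In order of mean level, the control libraries had Egr1 and Ier2 at the top, whose ranges overlapped, then Ier3, then Phlda1 and Ier5, whose ranges overlapped, then Nr4a1 and Nr4a2, likewise overlapping, then Egr2, and Nr4a3 and Egr3 last. In the Sema4D libraries the order was Ier3, Phlda1, Ier2, Egr1, Ier5, Nr4a2, Nr4a1, Egr2, Egr3 and Nr4a3, and no neighbours in it overlapped. Some of these gaps were narrow. The lowest Egr1 value was 12.61 and the highest Ier5 value 12.58 FPKM. For Egr3 the lowest value was 0.128 and for Nr4a3 the highest was 0.123 FPKM, both on few fragments. Sema4D replicate 2 held the lowest value of its group for 6 of the 10 members and the highest for 0. The same count over all tested genes is not given here, so this count does not set the members apart. Without that library the 4 rises and the fall kept their calls, and the log2 differences of Nr4a1 and Egr2, which did not pass, went from -0.21 to -0.10 and from -0.16 to -0.09.

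The genes whose profile over the 6 libraries was most like that of a member were found by the root mean square difference of log2(FPKM + 1) values, each profile set to its own control mean. The search covered 10519 tested genes, with predicted genes, small RNAs and pseudogenes left out. Nearest to Ier3 were Nfkbia (difference 0.085), the gene of the NF-kappaB inhibitor IkappaB-alpha, Bcl3 (0.091), a nuclear IkappaB protein, and Casp4 (0.151), an inflammatory caspase. Nfkbia went from 9.13 to 123 FPKM, Bcl3 from 2.19 to 37.6 FPKM and Casp4 from 0.484 to 15.7 FPKM. For a gene with so large a change the search mostly matches the size of the change. A similar change therefore follows from the choice, and shared control was not tested. Adding 1 FPKM shrinks the change of low genes such as Casp4, so its FPKM rose more in proportion than that of Ier3. Nearest to Phlda1 were Fam20c (0.047), a secretory pathway kinase, the class I gene H2-K1 (0.058) and the adaptor Grb14 (0.067). H2-K1 has near-identical relatives, so its value is uncertain. Nearest to Egr1 were the small heat shock gene Hspb6 (0.026), the Wnt receptor gene Fzd7 (0.028) and Sapcd2 (0.029). Sapcd2, a low gene, went from 1.47 to 0.847 FPKM, a larger fall in proportion than that of Egr1. Nearest to Ier5 were Shroom4 (0.031), Pcdh7 (0.04) and Rnf145 (0.04), and to Nr4a2 Lrp10, Fam214b and Bahcc1 (0.017 to 0.018). Mcm2, Vash2 and Ube2m were nearest to Ier2 (0.013 to 0.031) and Zfp763, Tnfrsf21 and Tmem238 to Nr4a1 (0.05 to 0.058).

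Other genes around these families were taken from lists of known partners and relatives. The list counts here and below stand against 24.5% of all tested genes that rose and 22.2% that fell. Of the EGR corepressors, Nab1 rose from 10.3, 11.1 and 10.5 FPKM in control to 21.7, 20.9 and 22.0 FPKM in Sema4D libraries (log2 change 0.95, limma adjusted p = 4.87e-07). Nab2, which is itself a known EGR1 target, did not pass (41.2 ± 0.924 FPKM in control and 41.3 ± 1.23 in Sema4D libraries, mean ± SD, n = 3 each, limma adjusted p = 0.941). Of 10 genes known as EGR1 targets 8 were tested, and 5 rose and 0 fell while Egr1 itself fell (median log2 fold change 0.42). After quantile normalization or division by the FPKM total 4 rose and 0 fell. The rises included the prostaglandin E synthase gene Ptges (from 2.33 to 74.9 FPKM), Icam1, which encodes an adhesion receptor (from 9.67 to 284 FPKM), the growth factor gene Tgfb1 (from 18.8 to 34.7 FPKM) and the tissue factor gene F3 (from 5.93 to 10.1 FPKM). Icam1 and Ptges are also known targets of NF-kappaB, and Icam1 was on the NF-kappaB list as well.

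Among the retinoid X receptors that pair with NR4A proteins, Rxra fell from 28.2 ± 0.23 to 22.3 ± 0.323 FPKM (log2 change -0.33, limma adjusted p = 5.21e-05), and Rxrb did not pass (0.486, or 0.0441 with a lower level after division by the FPKM total). Of the relatives of Ier5 and Phlda1, Phlda3 rose (0.33, limma adjusted p = 0.000832) and Ier5l did not pass (-0.17, limma adjusted p = 0.13, or 0.0393 after division by the FPKM total). Phlda2, under the filter, was read at 1.41, 1.09 and 1.14 FPKM in control and at 0.212, 0.455 and 0.377 FPKM in Sema4D libraries. Its groups did not overlap, in the opposite direction to Phlda1.

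Genes that carry signals to early response promoters had list medians within 0.16 of 0 on the log2 scale. Of 6 genes on the serum response factor side, the coactivator gene Mkl1 rose (0.37, limma adjusted p = 0.000253) and Elk3 rose (0.16), Srf was at 8.43 ± 0.458 and 7.9 ± 0.51 FPKM, and 0 fell (median log2 fold change 0.08). Of 8 ERK cascade genes 4 rose and 0 fell (median 0.16), led by Map2k1, which encodes the kinase MEK1 (0.39, limma adjusted p = 3.96e-05). Over all tested genes 24.5% rose and 22.2% fell, 46.7% in either direction. The ERK cascade count depended on scaling, as given below, so no conclusion is drawn from it. Of 6 genes on the CREB side, Crem (0.40) and Crtc2 (0.13) rose and Crtc3 fell (-0.15), with a median of 0.06. After division by the FPKM total the ERK cascade counts were 2 rises and 2 falls, those of the CREB side 1 and 2, and those of the serum response factor side 1 and 0.

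Of 44 other immediate early genes 38 were tested, and 27 rose and 7 fell (median log2 fold change 0.55). Over all tested genes 24.5% rose and 22.2% fell. The largest rises were those of the AP-1 gene Junb (from 11.1 ± 0.172 to 48.2 ± 3.1 FPKM), of Maff, a small Maf factor (from 1.87 ± 0.092 to 10.4 ± 0.387 FPKM), and of Ptgs2, which encodes cyclooxygenase-2 (from 1.31 ± 0.255 to 6.14 ± 0.0956 FPKM). The largest falls were those of Gadd45g (from 35.5 ± 2.02 to 16.5 ± 1.01 FPKM), Cyr61 (from 110 ± 2.11 to 54.8 ± 1.72 FPKM) and Ctgf (from 521 ± 1.83 to 263 ± 8.8 FPKM), which encode a growth arrest protein and 2 matricellular proteins. Fos, named after its values were seen, was at 1.34 ± 0.205 and 1.02 ± 0.0834 FPKM (limma adjusted p = 0.0968). Of 12 NF-kappaB-driven early genes all 12 rose (median 3.92), and the log2 change of Ier3 (3.64) lay within their range of 1.81 to 9.27. Their largest rises were those of the chemokine genes Cxcl1 (9.27), Ccl2 (9.17) and Cxcl2 (6.56). These lists were drawn up with earlier results of these data known and are not independent evidence of a direction.

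**Figure D4:**
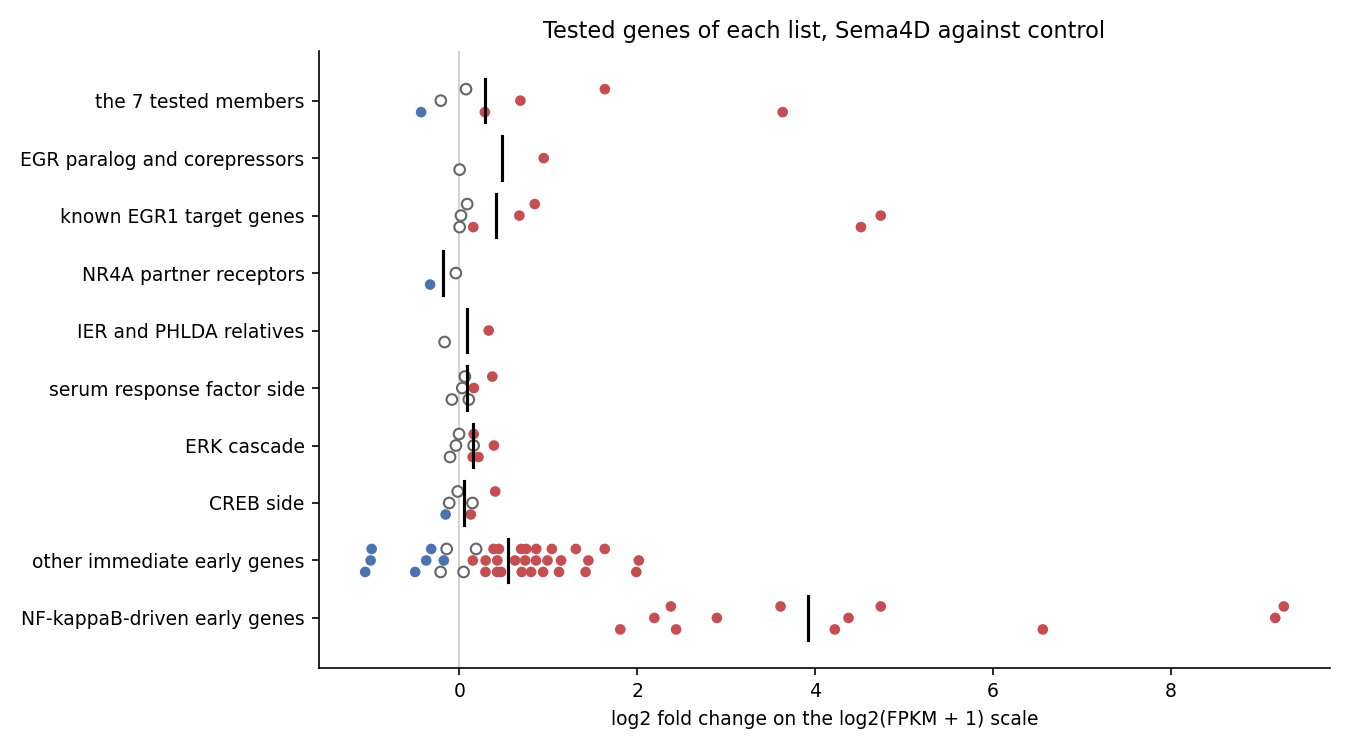
Log2 fold change of each tested gene, Sema4D against control, for the 7 tested members and 9 lists of related genes; red and blue points passed the threshold as rises and falls, open points did not, and the black bar is the list's median. The median of the NF-kappaB-driven genes is 3.92 and that of the members 0.29, with Ier3 at 3.64 among the members.

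The members are compact genes. In GENCODE M21, 7 of the 10 have a longest coding transcript of 1 or 2 exons, and the median gene length is 5287 bases. Of 10842 tested protein-coding genes 6.28% have 1 or 2 exons, and the median gene length is 24552 bases. The 3 exceptions are the NR4A genes, with 8 exons each. The depth behind the values differs in proportion to level and length. The spacing of the lowest values put the depth at an estimated 1.25e+07 to 1.66e+07 fragments per library. On that estimate 823 to 1300 fragments fell on Egr1, 315 to 429 on Ier2 and 186 to 3900 on Ier3. Ier5 had 303 to 634 and Phlda1 182 to 796, but Nr4a1 had only 48 to 88 and Nr4a2 68 to 131. These numbers are approximate, because they take the longest coding transcript, which for Egr1 has 4484 bases against a RefSeq gene of 3750.

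The labelled cell type was checked against its markers. All 9 chondrocyte markers were tested and all 9 fell (median log2 fold change -0.60), with Col2a1 losing its call after quantile normalization (limma adjusted p = 0.459) and a summed level of 13540 to 14677 FPKM in control and 10914 to 11855 FPKM in Sema4D libraries. Of 8 fibroblast and synovial lining genes 6 were tested, and 1 rose and 2 fell. Their sum was 5012 to 5387 FPKM in control and 5004 to 5239 FPKM in Sema4D libraries. Most of it was Col1a1 (means of 4011 in control and 3820 FPKM with Sema4D) and Col3a1 (1092 and 1166 FPKM). Col2a1, a chondrocyte marker, was at 10506 and 8796 FPKM. The 6 macrophage markers summed to 22.9 to 30.4 FPKM in control and 19.6 to 21.98 FPKM in Sema4D libraries. Most of that sum was Lyz2 (means of 22.4 and 15.9 FPKM), while Adgre1, under the filter, was read at 0.203 and 0.673 FPKM. The 6 osteoblast markers summed to 5.0002 to 6.38 and 3.61 to 4.34 FPKM, and the 4 muscle markers to 4.49 to 5.03 and 3.19 to 4.39 FPKM, in control and Sema4D libraries. The 4 endothelial markers summed to at most 0.307 FPKM in any library, and of the neutrophil and erythroid markers S100a9 and Hbb-bs were listed at 0 in all 6, and the 5 of that list summed to at most 0.672 FPKM. The part of these shifts in the members' values was not tested.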

How the data were processed

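Expression was read as FPKM for 6 libraries, 3 per group, in a table deposited by the authors with 1 column per library, all of which were used. Per the submitters' processing notes, the authors' tools were Cufflinks 2.2.1, TopHat2 2.0.13, SAMtools 0.1.19 and Bowtie2 2.2.3, with the build mm10, with no role or order given. The annotation, strand setting, filters and scaling are not given in the sources used here. A count test was not used because FPKM are scaled values.

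Values were transformed to log2(FPKM + 1), which understates the change of low genes. The 11603 genes averaging 1 FPKM or more were fitted with limma 3.58.1 (lmFit, then eBayes with a trend, two-sided, no replicate block) in R 4.3.3, and 12743 were under the filter. The fit was tested on simulated data in which far fewer genes changed than were called here. That test therefore does not show how many of the calls here are false. Egr2, Egr3 and Nr4a3 come from the fit with no filter. Depth was estimated by the spacing of low values among 1462 genes with 1 transcript, of which 200 to 229 per library had such a value. At the best-fitting depth 73% to 81.1% of these low values were within 0.15 of a whole fragment. That was too few for counts to be recovered. Between libraries, 0.112% to 0.293% of tested genes had equal values, so no library was held in duplicate. FPKM columns summed to 492708 to 494123 in control and 518901 to 527492 in Sema4D libraries. Positions and promoters are RefSeq GRCm38.p6, and structures are GENCODE M21. Python 3.11.15 with numpy 2.4.6, pandas 2.3.3 and matplotlib 3.10.9 made the descriptions.

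The members and gene lists were chosen with earlier results of these data known. Every member is named. Every gene of a list with at most 8 tested genes could be named, and of longer lists the 3 largest rises and falls past the threshold, besides the 3 genes nearest in profile to each tested member; some genes of these lists are not reported here. Alternatives were another pseudocount, 2 other filters, 3 scalings, a replicate block, no variance trend and leaving out each library.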

Additional observations from a re-analysis of the deposited data

How the results depend on the processing

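The calls of Egr1, Ier3, Ier5, Phlda1 and Nr4a2 held in each alternative in which they could be fitted, 14 for each but Nr4a2, which had 13 because its mean is under 5 FPKM. Their log2 fold changes ranged from -0.52 to -0.40 for Egr1, 3.57 to 3.71 for Ier3, 0.64 to 0.75 for Ier5, 1.59 to 1.75 for Phlda1 and 0.25 to 0.42 for Nr4a2. Nr4a1 missed the threshold in all 13 alternatives (log2 difference -0.32 to -0.10, limma adjusted p 0.0868 to 0.458), and Egr2 in all 12 (-0.46 with a pseudocount of 0.1 to -0.09 without Sema4D replicate 2, limma adjusted p 0.0701 to 0.247). Ier2 missed it in all 14, with a value of -0.00316 after division by the FPKM total (limma adjusted p = 0.974, within a range of 0.0829 to 0.974). With that division the median log2 fold change over all tested genes went from 0.01 to -0.07. The values of Ier2 without 1 library ranged from 0.0084 to 0.141, and the cause of the turned sign was not tested. With no filter on low values, the Egr3 call was lost with a pseudocount of 0.1 (log2 difference 0.50, limma adjusted p = 0.0522), with a replicate block (0.0813), with no variance trend (0.0555) and without control replicate 2 or 3 (0.0677 and 0.0676), within a range of 0.0381 to 0.0813. The sign of Nr4a3 turned without control replicate 1 (-0.0026) or 2 (-0.0127), and its values without 1 library ranged from -0.0127 to 0.0599. Deviations of same-numbered libraries correlated at 0.14, -0.08 and -0.05, and those of other pairs at -0.07 to 0.14. These weak correlations cannot tell whether the libraries were paired. With a replicate block 2638 genes rose and 2356 fell, against 2841 and 2581, and the Egr3 call was the 1 member call that changed. Low fragment numbers limit Egr2, Egr3 and Nr4a3.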

Other observations

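Receptors for Sema4D and their partners differed in direction. Of 7 genes 6 were tested, and 3 rose and 2 fell, or 2 and 2 after division by the FPKM total. Plxnb1, the high-affinity plexin receptor gene, fell from 13.2, 13.4 and 12.9 FPKM in the control libraries to 9.22, 8.57 and 8.94 FPKM in the Sema4D libraries (log2 change -0.51, SE 0.043, limma adjusted p = 2.26e-05). Plxnb2 was the most abundant of them and fell less (-0.14, limma adjusted p = 0.00867). Among the rises, Met, a receptor kinase that associates with plexin-B1 (0.22), missed the threshold after division by the FPKM total (limma adjusted p = 0.0512). Erbb2, another receptor kinase, did not pass (limma adjusted p = 0.851).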
